A study of Homo sapiens with 2 samples.

Results

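The alpha- and beta-tubulin genes were followed through the RNA peaks of both libraries of the series. They were the 4 alpha-tubulin genes TUBA1A, TUBA1B, TUBA1C and TUBA4A and the 6 beta-tubulin genes TUBB, TUBB2A, TUBB2B, TUBB3, TUBB4B and TUBB6. A peak belonged to a gene when the identifier in its name matched that gene in GENCODE release 29, the gene annotation on the human genome build GRCh38. These 10 genes held 104 of 96682 distinct peaks in replicate 1 and 105 of 105125 in replicate 2, among 20048 gene identifiers in all. Each library was made from cytoplasmic RNA of the embryonic kidney line HEK293T, kept for 24 h with doxycycline at 3 ug/mL. Doxycycline often serves to switch on an introduced gene, but no such gene is named, and the meaning of the group name TRACER is not given. The stated question was which sequences within RNA meet CCR4-NOT, the deadenylase complex that shortens poly(A) tails in the cytoplasm. With 1 group and no input or control library, no comparison between conditions could be tested. The labels leave unsaid if each replicate came from its own culture, so replicate spread may be purely technical.

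Alpha- and beta-tubulin form the dimers that polymerise into microtubules. Cells adjust the amount of tubulin through the stability of its mRNA, a feedback known as tubulin autoregulation. When free dimers are in excess, TTC5 recognises the first residues of the nascent tubulin chain as it leaves the ribosome. TTC5 recruits SCAPER, and SCAPER recruits CCR4-NOT through its subunit CNOT11, after which the mRNA is deadenylated and degraded while it is being translated. The amino-terminal motif is thus encoded at the very start of the coding sequence (CDS), and the peaks were placed along the CDS from the start codon, which is codon 1. Whether autoregulation was active in these cells was not measured.

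The first codons are shown because the motif read by TTC5 lies there and because they show how far the genes can be told apart. Capitals mark the first 4 codons, and the sequences are from GENCODE 29 transcripts.

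TUBA1A: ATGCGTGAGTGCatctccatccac
TUBA1B: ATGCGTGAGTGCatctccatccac
TUBA1C: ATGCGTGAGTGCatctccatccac
TUBA4A: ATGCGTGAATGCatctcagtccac
TUBB: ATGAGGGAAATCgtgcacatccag
TUBB2A: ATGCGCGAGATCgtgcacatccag
TUBB2B: ATGCGTGAGATCgtgcacatccag
TUBB3: ATGAGGGAGATCgtgcacatccag
TUBB4B: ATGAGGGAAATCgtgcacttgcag
TUBB6: ATGAGGGAGATCgtgcacatccag

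TUBA1A, TUBA1B and TUBA1C were identical over these 24 bases, and so were TUBB3 and TUBB6. Over the whole CDS, identity ranged from 84.4% to 97.2% among the 6 pairs of alpha genes and from 80.9% to 98.1% among the 15 pairs of beta genes. Between the families it ranged from 52.9% to 55.6% over 24 pairs. A read that fits several of these genes can be counted at each of them, and the names of the deposited files show that reads with several loci were kept, with the number 5 given for multimapping. For each summit, the position of most reads within a peak, the 25 nt around it were therefore searched in the other tubulin genes and in the tubulin pseudogenes. A summit whose 25 nt occur nowhere else in that set is called gene-specific here.

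Every one of the 10 genes had a peak that overlapped a peak of the other library by at least 1 nt. The same held for 97.8% of the 8890 protein-coding genes with at least 10 reads in each library, a floor that all 10 tubulin genes passed. Of the tubulin peaks, 84.6% in replicate 1 (88 of 104, exact 95% binomial interval 76.2 to 90.9) and 80.0% in replicate 2 (84 of 105, 71.1 to 87.2) overlapped in this way. The intervals cover counting error only and treat the peaks as independent. Peaks of paralogues and adjoining peaks can hold the same reads, so the intervals may be too narrow. By gene, the overlapping peaks numbered 16 of 17 and 15 of 16 in TUBA1A and 21 of 22 and 19 of 20 in TUBA1B. They were 21 of 22 and 20 of 20 in TUBA1C, and all peaks of TUBA4A and TUBB. They were 6 of 8 and 6 of 7 in TUBB4B and 6 of 9 in each library in TUBB6. In TUBB2B they were 5 of 7 and 6 of 13. Shares were lowest in TUBB2A, with 2 of 5 in each library, and TUBB3, with 2 of 5 and 2 of 7. No such share over all peaks of the series stands beside these values, so they cannot be read as high or low. Summed over peaks, the tubulin genes held 4960 and 5110 reads in replicates 1 and 2, which was 0.313% and 0.307% of the reads in distinct peaks. TUBA1A, TUBA1B and TUBA1C together held 4096 and 3997 of them, or 82.6% and 78.2%. The beta genes held 853 reads in replicate 1 and 1098 in replicate 2. These sums are not sequencing depth, since adjoining peaks and peaks of paralogues can count the same read.

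To compare genes of different length, signal was expressed as a normalised level, the reads of a gene per 1000000 reads in distinct peaks and per kb of its principal transcript. TUBA1B led with 694 in replicate 1 and 627 in replicate 2 on this scale, followed by TUBA1A with 355 and 335 and TUBA1C with 258 and 247. TUBB4B, at 134 and 151, was the highest beta gene. These 4 genes kept their order in both libraries with no overlap between neighbours, and their mean levels ranked 41, 120, 179 and 351 among the 8890 genes. The levels count reads in shared windows at each gene. Windows shared with tubulin genes or pseudogenes held all CDS reads of TUBA1A. They held 85.9% and 90.3% of those of TUBA1B, and 87.3% and 90.4% of those of TUBA1C. The levels and ranks of TUBA1A, TUBA1B and TUBA1C thus rest mostly on reads that cannot be assigned to a single gene. TUBB2B (39.7 and 70.8), TUBB2A (41.1 and 50.9) and TUBB6 (37.6 and 42.8) overlapped and could not be ordered. TUBB stood at 27.2 and 27.5, and TUBB3, the beta-tubulin best known from neurons, at 12.8 and 15.6. TUBA4A was lowest with 3.21 and 4.17, and ranked 7473. The median over the 10 genes was 40.4 and 60.8, against 10.7 and 12.5 over all 8890 genes, and 9 of the 10 lay above the median of all genes in each library. With no input library, the amount of mRNA and its association with the complex cannot be told apart in these values.

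**Figure D1:**
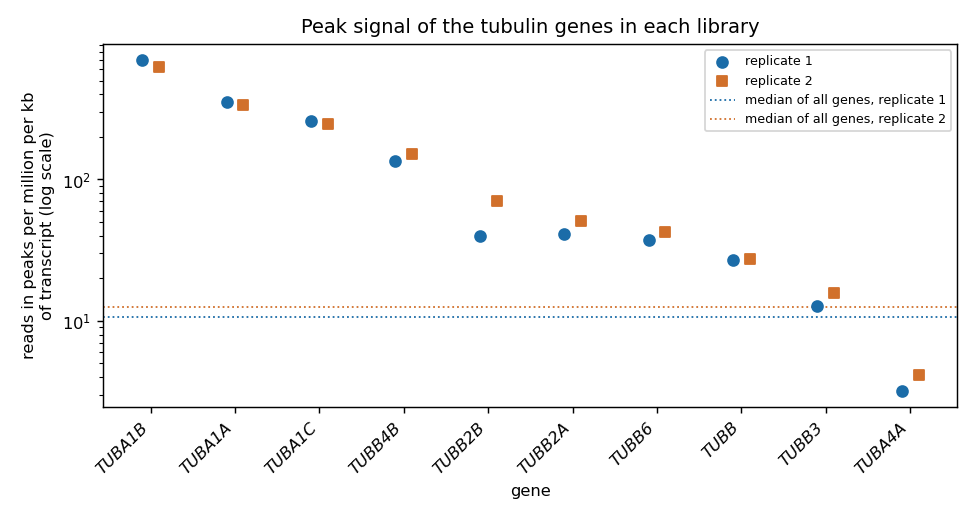
Normalised level, in reads per 1000000 and per kb of transcript (log axis), for each tubulin gene, one circle for replicate 1 and one square for replicate 2, with the median of all 8890 genes in each library as a dotted line. TUBA1B stands at 694 and 627 and TUBA4A, the only gene under the lines, at 3.21 and 4.17.

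Most of the signal lay on coding bases, but the value depends on which annotated transcript is read. On the principal transcript of each gene, the CDS held 95.5% and 96.0% of the tubulin reads in replicates 1 and 2 (mean 95.8% ± 0.370, SD, n = 2). The 3′ UTR held 2.02% and 2.11%, the 5′ UTR 2.28% and 1.62%, and introns 0.202% and 0.235%. When a base counted as 3′ UTR wherever any annotated transcript of the gene has a 3′ UTR, the CDS held 36.7% ± 1.53 and the 3′ UTR 61.2% ± 1.09 (SD, n = 2). TUBA1B, TUBA1C, TUBB3 and TUBB6 have annotated transcripts of the nonsense-mediated decay type, in which the stop codon lies early and the usual coding bases count as 3′ UTR. Under that reading TUBA1B and TUBA1C had 0% of their reads in the CDS in each library, against 91.9% and 95.1% for TUBA1B and 95.8% and 94.4% for TUBA1C on the principal transcript. Positions below refer to the principal transcript. There the median share of reads in the CDS was 97.9% and 97.6% over the tubulin genes, against 53.1% and 56.9% over all 8890 genes. The median share in the 3′ UTR was 0% in each library over the tubulin genes, against 17.4% and 16.7% over all genes. The tubulin 3′ UTRs ranged from 151 nt in TUBB4B to 1376 nt in TUBA1C, and these shares were not adjusted for length. With gene-specific summits only, the CDS held 81.1% and the 3′ UTR 9.76% of tubulin reads on the principal transcripts (means of both libraries). Every 3′ UTR summit there was gene-specific, so this filter kept all 3′ UTR reads and raised their share by construction.

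Peaks covered a median of 18.5% and 19.2% of the coding bases of a tubulin gene, against 9.27% and 11.1% over all genes. The tubulin medians lay between the quartiles of all genes, 3.38% and 20.7% in replicate 1 and 4.49% and 23.1% in replicate 2. Coverage was not adjusted for the number of reads of a gene. The alpha CDS was covered over 38.0% and 36.5% of its length and the beta CDS over 16.1% and 16.3%. Coverage was highest in TUBA1C, with 53.6% in each library, and in TUBA1B, with 52.1% and 49.0%. It was lowest in TUBA4A, with 2.67% and 3.71%. Stretches of CDS whose 25 nt windows occur in 1 to 4 other tubulin genes or pseudogenes were covered over 32.9% and 31.3% of their 7153 nt. Stretches with windows in 5 or more others were covered over 15.7% and 16.5% of their 650 nt, and gene-specific stretches over 16.0% and 16.5% of their 5649 nt. These values pool genes of unlike coverage. Within genes, stretches shared with 1 to 4 others were more covered than gene-specific ones in TUBA1A, TUBA1C, TUBB2A and TUBB3 in each library. They were less covered in each library in TUBB and TUBB4B. The order changed between libraries in TUBA1B, TUBA4A, TUBB2B and TUBB6. Of all CDS reads, 77.7% ± 0.339 (SD, n = 2) belonged to summits whose window occurs in another protein-coding tubulin gene, and the part of this sharing in the coverage was not tested.

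TUBA1B (ENSG00000123416, chr12:49127782-49131397, minus strand, 451 codons) encodes one of the main alpha-tubulins of dividing cells. It held 1791 reads in 22 peaks in replicate 1 and 1697 reads in 20 peaks in replicate 2. Its strongest peak, with 253 and 272 reads, had its summit at codon 436 in replicate 1 and 435 in replicate 2, near the end of the CDS (chr12:49127975-49128041 in replicate 1). TUBA1A (ENSG00000167552, chr12:49184796-49189324, minus strand, 451 codons), an alpha-tubulin abundant in developing neurons, held 1079 reads in 17 peaks and 1066 reads in 16 peaks. The strongest TUBA1A peak lay at the same codon, 436 in each library, with 241 and 267 reads (chr12:49185027-49185092 in replicate 1). The 25 nt window of each occurs in the other gene and in the pseudogene TUBAP2, so their reads cannot be assigned to 1 gene. Of the 17 CDS peaks of TUBA1A in replicate 1, 14 had a TUBA1B peak within 3 codons, and 13 of 16 did in replicate 2. The reads of such matched peaks differed by a median of 8.21% and 6.67%. Every TUBA1A summit lay in a window shared with another protein-coding tubulin gene, so no TUBA1A peak was gene-specific in either library.

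TUBA1B did have peaks of its own. In its 5′ UTR, 59 nt before the start codon, a gene-specific peak held 113 and 83 reads (chr12:49131320-49131372 in replicate 1, chr12:49131325-49131371 in replicate 2). Another at codon 58 held 62 and 78 reads. Shared windows held 79.6% and 81.5% of the CDS reads of TUBA1B, or 85.9% and 90.3% with pseudogenes counted. TUBA1A and TUBA1C had no 5′ UTR peak in either library.

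TUBA1C (ENSG00000167553, chr12:49188736-49274603, plus strand, 449 codons) held 1226 reads in 22 peaks and 1234 reads in 20 peaks. Shared windows held 87.3% and 90.4% of its CDS reads. Its strongest peak lay in the middle of the CDS at codons 249 and 250, with 137 and 177 reads (chr12:49272597-49272668 in replicate 1), in a window that TUBA1A, TUBA1B and TUBAP2 share. Its second peak, at codons 433 and 432, was gene-specific and held 108 and 112 reads. A gene-specific peak in the 3′ UTR held 46 and 65 reads, and a peak outside the exons of the principal transcript held 6 and 4 reads.

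TUBA4A (ENSG00000127824, chr2:219249711-219278170, minus strand, 448 codons) held only 11 and 15 reads, in 2 peaks per library. The stronger one had its summit at codon 432 in each library and held 8 and 12 reads (chr2:219250395-219250414 in replicate 1). Its window occurs in no other tubulin gene or pseudogene. The other, at codons 360 and 361, held 3 reads in each library, the fewest that any peak in these files has. No TUBA4A peak lay in the first 3 exons.

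**Figure D2:**
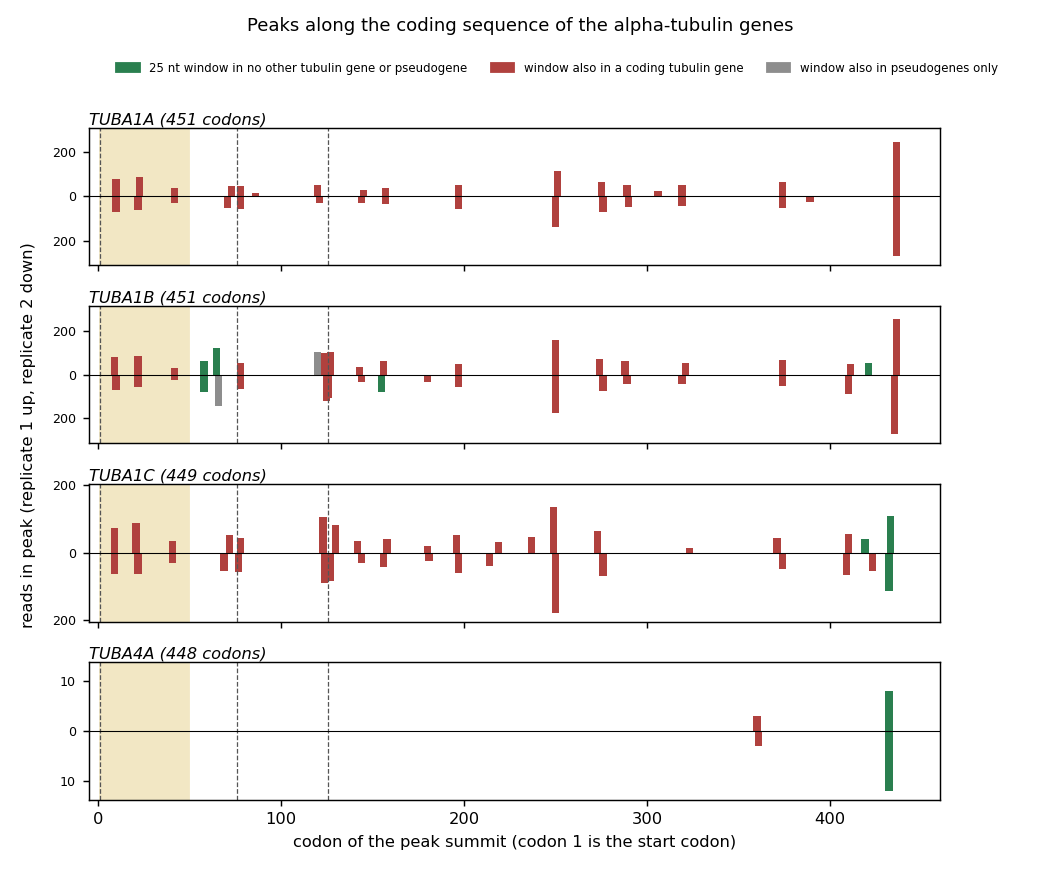
Reads in each CDS peak of the alpha-tubulin genes at the codon of its summit, replicate 1 upwards and replicate 2 downwards, with codons 1 to 50 shaded, exon borders dashed and bars coloured by whether the 25 nt window is gene-specific. TUBA1A, TUBA1B and TUBA1C carry peaks at like codons up to the peak at codons 432 to 436, which is the stronger of the 2 peaks of TUBA4A.

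TUBB4B (ENSG00000188229, chr9:137241213-137243707, plus strand, 445 codons), a broadly expressed beta-tubulin, held 348 reads in 8 peaks and 410 reads in 7 peaks. Every one of these peaks lay in the CDS and was gene-specific by its summit window. Of all CDS windows of TUBB4B, 32.7% occur in other tubulin genes or pseudogenes, against 17.3% in TUBB6. Windows found in 5 or more others made up 17.0% of the TUBB4B CDS, and their effect on its profile was not tested. Its strongest peak lay at codons 111 and 112 with 101 and 146 reads (chr9:137242532-137242601 in replicate 1). The 25 nt around the summit of the strongest peak are shown for each beta gene, to let shared and gene-specific windows be compared, with the summit codon in capitals. An adjoining peak at codon 97 held 57 and 74 reads, and a peak at the start of the CDS, at codons 6 and 5, held 24 and 29. The read-weighted mean position was 0.305 and 0.300 of the way from the start to the stop codon.

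TUBB4B, codon 111: agaaggcgcgGAGctggtggactcg

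TUBB (ENSG00000196230, chr6:30720201-30725426, plus strand, 444 codons), the class I beta-tubulin of most cells, had all of its peaks in the first part of the CDS. They numbered 7 in replicate 1 and 6 in replicate 2, held 115 and 122 reads, and had summits between codons 16 and 93. Its mean position of 0.132 and 0.139 was the lowest of the 10 genes. Peaks covered 57.4% and 55.6% of the coding bases before the last exon, against 3.02% and 2.27% of those in the last exon. Of the TUBB windows in the last exon, 68.4% occur in other tubulin genes or pseudogenes, against 58.8% of those before it. The effect of this sharing on where TUBB had peaks was not tested. The strongest peak with a gene-specific window, at codon 55, held 20 and 31 reads (chr6:30722625-30722645 in replicate 1, chr6:30722606-30722645 in replicate 2). Windows in pseudogenes held 73.9% and 74.6% of the CDS reads of TUBB, and windows in other protein-coding tubulin genes held 0% in each library.

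TUBB, codon 55: acaatgaagccACAggtggcaaata

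In TUBB, neighbouring peaks met at exon borders. The peak at codon 55 ended where its exon ended, and the next exon began with a peak at codon 56 that held the same number of reads, 20 in replicate 1 and 31 in replicate 2. Peaks at codons 92 and 93, on either side of the next border, held 20 and 20 reads in replicate 1 and 21 and 21 in replicate 2. Whether the same spliced reads were counted on both sides was not tested. Over the 10 genes, 9 borders per library had a peak on each side within 1 nt, in 5 genes, and the counts were equal at 2 of the 9 in each library.

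TUBB2A (ENSG00000137267, chr6:3153669-3157526, minus strand, 445 codons) and TUBB2B (ENSG00000137285, chr6:3224261-3231730, minus strand, 445 codons) are beta-tubulin genes that lie close together. Their strongest peaks had the same summit codon, 256, and the same number of reads, 42 in replicate 1 and 56 in replicate 2. The TUBB2A peak lay at chr6:3154422-3154453 and the TUBB2B peak at chr6:3225308-3225343 in replicate 1. TUBB6 (ENSG00000176014, chr18:12307669-12344320, plus strand, 446 codons) had its strongest peak next to that position, at codon 255, with 39 and 48 reads (chr18:12325537-12325569 in replicate 1).

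TUBB2A, codon 256: agctggcggtgAACatggtgccctt
TUBB2B, codon 256: agctggcggtgAACatggtgccctt
TUBB6, codon 255: caagctggcgGTGaacatggtgccc

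These windows occur in all 3 genes and in the pseudogene TUBB2BP1, so the reads at this position cannot be assigned to 1 of them. TUBB2A had 104 reads in 5 peaks and 135 reads in 5 peaks, all in shared windows. TUBB2B had 127 reads in 7 peaks and 238 reads in 13 peaks, the widest difference between libraries among the 10 genes. Its gene-specific peaks included 1 in the 3′ UTR with 12 and 20 reads, 1 at codon 93 with 9 and 12 reads, and 1 at codons 95 and 96 with 10 and 17 reads.

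TUBB6 held 123 and 147 reads, in 9 peaks per library. Shared windows held 50.4% and 35.0% of its CDS reads, so gene-specific summits carried a large part of them. The gene-specific peak with the most reads lay at codons 119 and 114 with 25 and 33 reads, and another at codons 38 and 37 held 19 and 16. A pair of small gene-specific peaks in the 3′ UTR held 5 reads each in each library.

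TUBB3 (ENSG00000258947, chr16:89921392-89938761, plus strand, 450 codons) held 36 reads in 5 peaks and 46 reads in 7 peaks. All 5 peaks of replicate 1 and 5 of the 7 of replicate 2 were also listed under AC092143.1, an overlapping gene entry on the same strand, so these reads cannot be told apart. The strongest peak, with summits at codons 393 and 402, held 20 and 17 reads (chr16:89935604-89935701 in replicate 1), and other beta-tubulin genes share its window. An intron peak held 4 and 8 reads.

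TUBB3, codon 393: ccggcgcaagGCCttcctgcactgg

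**Figure D3:**
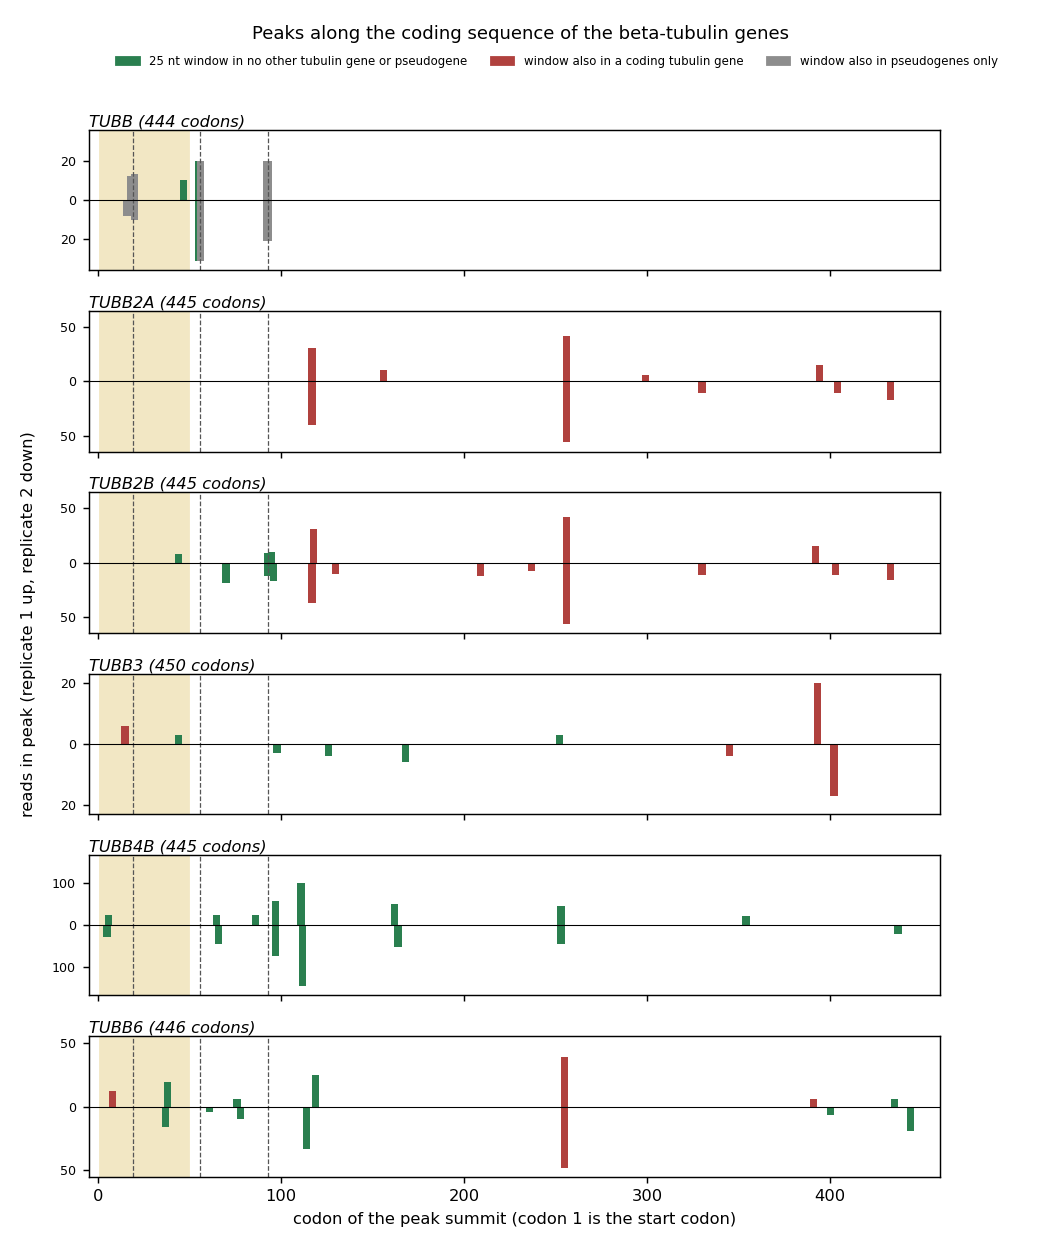
Reads in each CDS peak of the beta-tubulin genes at the codon of its summit, replicate 1 upwards and replicate 2 downwards, with codons 1 to 50 shaded, exon borders dashed and bars coloured by whether the 25 nt window is gene-specific. The TUBB peaks all lie by codon 93, TUBB2A and TUBB2B share the peak at codon 256, and every TUBB4B bar is gene-specific.

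The placement along the CDS was then followed from the start codon. No tubulin gene had a peak over the start codon in both libraries, against 12.0% of the 8890 genes. The start codon lay under a peak once, in TUBB6 in replicate 1, with 12 reads and a summit at codon 8 (chr18:12308286-12308341). In the alpha genes an exon border directly follows the start codon, and the first peaks of TUBA1A, TUBA1B and TUBA1C had summits at codons 9 and 10. Those peaks held 76 and 69 reads in TUBA1A, 78 and 70 in TUBA1B, and 75 and 63 in TUBA1C, and their summit windows were shared among the 3 genes. The gene-specific peak of TUBB4B at codons 6 and 5 was the summit nearest to a start codon.

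A summit within the first 50 codons was found in both libraries in 6 of the 10 tubulin genes, TUBA1A, TUBA1B, TUBA1C, TUBB, TUBB4B and TUBB6, against 40.1% of the 8890 genes. These codons held 14.7% of the tubulin CDS reads in replicate 1 and 10.8% in replicate 2 (mean 12.7%). With gene-specific summits only, the share was 7.48% and 5.16% (mean 6.32%), and no gene-specific alpha summit lay in these codons. In the alpha genes the first 50 codons held 15.0% and 12.1% over all summits, with 11.1% of the CDS length. In the beta genes they held 12.9% and 6.02%, with 11.2% of the length. By gene the median was 14.3% and 8.18% over the tubulin genes, above the 9.09% of all genes in replicate 1 and below their 10.8% in replicate 2. The share was 30.4% and 14.8% in TUBB and 18.1% and 14.8% in TUBA1A, the highest pair of genes in replicate 2. TUBB3, with 28.1% and 0%, and TUBB6, with 27.4% and 11.7%, lay above TUBA1A in replicate 1 and below it in replicate 2. The share was 0% in each library in TUBA4A and TUBB2A. In the beta genes the difference between the libraries was larger than the distance of either from the share of the length.

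In stretches of 50 codons, alpha reads were most frequent at the end of the CDS, where codons 401 to 450 held 20.7% and 22.6% of them. Codons 301 to 350 held the fewest, 3.63% and 2.28%. Gene-specific summits held 208 of the 808 alpha reads of codons 401 to 450 in replicate 1, and 124 of 872 in replicate 2. Beta reads were most frequent in codons 51 to 100, with 25.5% and 27.5%, and in codons 101 to 150, with 22.7% and 25.8%. Codons 251 to 300 held another 21.4% and 19.6% of beta reads, and codons 301 to 350 held 0% and 2.48%. Of the beta reads in codons 251 to 300, gene-specific summits held 48 of 177 and 45 of 205. In codons 51 to 100 they held 151 of 211 and 215 of 288. The median of the mean positions was 0.461 and 0.476 over the tubulin genes, against 0.461 and 0.468 over all genes. Single genes ranged from TUBB at 0.132 and 0.139 to TUBA4A at 0.918 and 0.930.

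**Figure D4:**
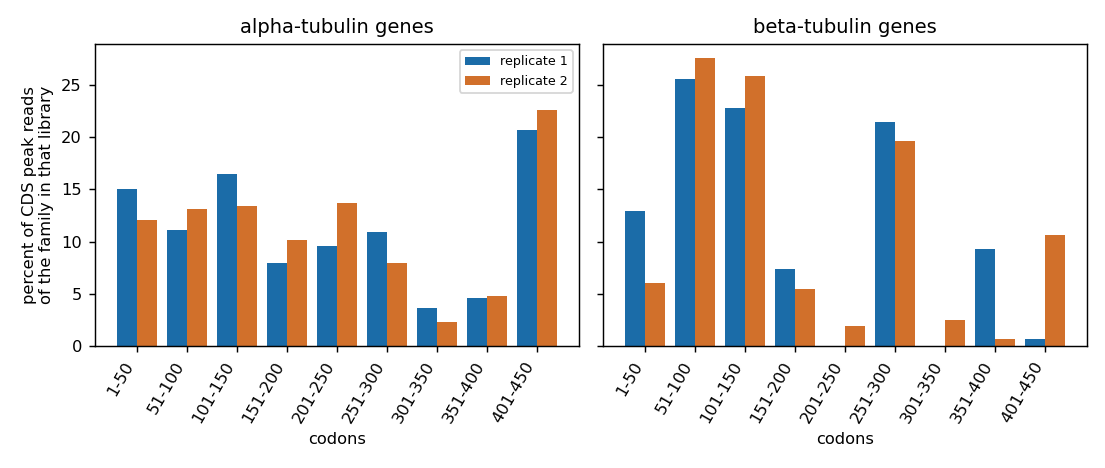
Percent of the CDS reads of the alpha genes (left) and the beta genes (right) with summits in each stretch of 50 codons, for replicate 1 and replicate 2. Codons 401 to 450 hold 20.7% and 22.6% of alpha reads, and codons 51 to 100 hold 25.5% and 27.5% of beta reads.

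Coding bases before the last exon, 3162 nt in all, were covered over 37.8% and 33.5%, and those in the last exon over 20.99% and 21.6%. The earlier exons were the more covered in each library in TUBA1A, TUBA1B, TUBA1C, TUBB, TUBB4B and TUBB6. In TUBB6 they were covered over 55.2% and 40.4%, against 14.3% and 13.9% in its last exon. The order was the other way in each library in TUBA4A, TUBB2A and TUBB2B, and it changed between libraries in TUBB3, which had 22.4% and 0% before the last exon and 9.85% and 16.2% in it.

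**Figure D5:**
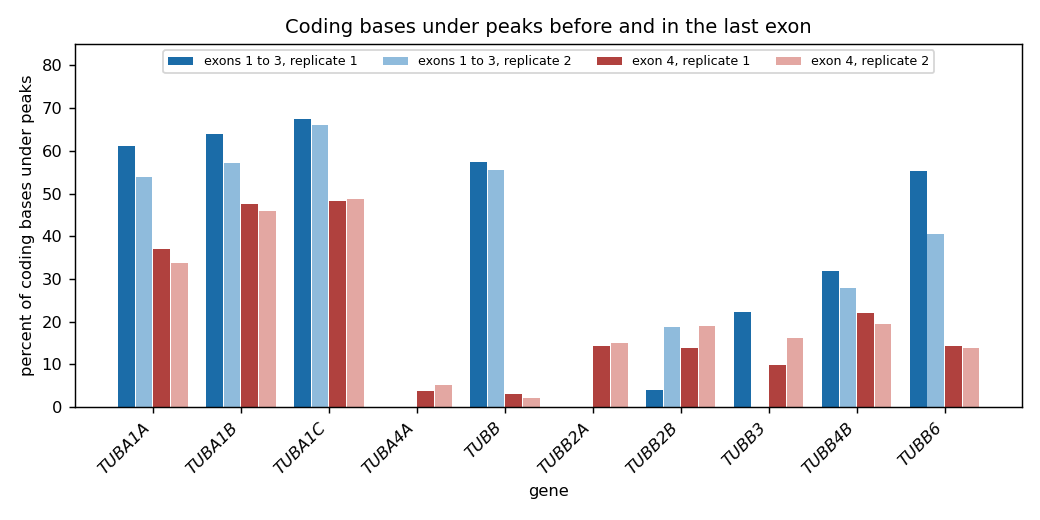
Percent of coding bases under peaks before the last exon (exons 1 to 3, blue) and in the last exon (exon 4, red) for each tubulin gene, with replicate 1 dark and replicate 2 light. TUBB stands at 57.4% and 55.6% before the last exon and at 3.02% and 2.27% in it, and TUBA4A and TUBB2A have no bar before it.

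Some codons carried summits in many of the genes. Among all stretches of 8 codons, codons 249 to 256 had a summit of each library in the most genes, 7 of 10, and 6 further stretches, which overlapped neither it nor each other, had one in 4. The first stretch was picked as the highest, and no count over other genes stands beside it. At codons 5 to 10, 16 to 23, 37 to 42 and 71 to 78, the genes were TUBA1A, TUBA1B, TUBA1C and a beta gene. The summit windows of TUBA1A, TUBA1B and TUBA1C there are shared. At codons 249 to 256, TUBA1B held 159 and 177 reads, TUBA1A 112 and 137, TUBA1C 137 and 177, TUBB4B 45 and 45, and TUBB2A, TUBB2B and TUBB6 the values given above. By shared windows these were 3 sets, the TUBA1 genes, TUBB2A with TUBB2B and TUBB6, and TUBB4B alone. Codons were counted from each gene's own start and the families were not aligned to each other. TUBB3 had 3 reads there in replicate 1 only, and TUBB and TUBA4A had none. Codons 432 to 436 had a summit of each library in the 4 alpha genes, and in single libraries in TUBB2A, TUBB2B and TUBB6. The TUBA1A and TUBA1B reads there are shared, while the TUBA1C peak of 108 and 112 reads and the TUBA4A peak of 8 and 12 reads were gene-specific.

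On the principal transcripts, the 3′ UTR held 2.06% of the tubulin reads on average, and 9.76% when only gene-specific summits were counted. That filter removed no 3′ UTR reads, so the rise follows from the smaller total. With any transcript the 3′ UTR held the 61.2% given above. Peaks there were found in both libraries in TUBA1C, TUBB2B and TUBB6, and the highest share of reads was that of TUBB2B, with 9.45% and 12.2%. The Pumilio element TGTANATA, the site of Pumilio proteins that recruit CCR4-NOT, occurred once in the 3′ UTR of TUBA1C and once in that of TUBB, on the sense strand, against 29.8% of 8738 genes with at least 1 in the 3′ UTR of the principal transcript. Neither lay under peaks of both libraries.

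The other genes of the pathway are given by count, with the members of most reads named. Each gene name was looked up under a single identifier, so reads under another identifier of that name would be missed. The counts of genes with a peak found in both libraries stand beside the 97.8% of the 8890 genes with at least 10 reads in each library, so full counts are near that background. All 5 genes of the autoregulation pathway and its deadenylase link had such a peak, with 926 and 1776 reads together. CNOT1, the CCR4-NOT scaffold, held 790 and 1632 of these, CNOT10 43 and 45, and CNOT11 42 and 52. Of the other tubulin genes, 6 of 12 had such a peak. By reads summed over both libraries they were led by the gamma-tubulins TUBG1 (136 and 156 reads) and TUBG2 (69 and 69) and the epsilon-tubulin TUBE1 (37 and 101). Of the tubulin folding cofactors, which assemble the dimer, 4 of 5 had one, led by TBCA with 217 and 200 reads. All 6 prefoldin genes, which deliver unfolded tubulin and actin to the chaperonin, had one, with 575 and 572 reads together. All 4 microtubule regulators had one, led by STMN1, which sequesters tubulin dimers, with 427 and 464 reads. The actin genes ACTG1 and ACTB, the other main cytoskeletal family, stood at 580 and 576 and at 452 and 426 in normalised level, between TUBA1B and TUBA1A on that scale.

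The 4 marker genes of HEK293T cells had 371 and 419 reads in peaks, and the 5 markers of liver, blood, fibroblast, T and pancreatic beta cells had 0 in each library. The libraries held 1585446 and 1663907 reads in distinct peaks, with a median peak of 6 reads in each.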

How the data were processed

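The deposited data were 1 peak list per library. Per the submitters' processing notes, cutadapt 4.2, UMI-tools 1.1.4 and STAR 2.7.11 were used with GRCh38, with no role stated. File names of the deposited lists tell that reads passed a filter on score, mismatch and multimapping, and peaks came from CLIPper. For its version and gene models, nothing was given in the sources at hand. The deposited p-value per peak is CLIPper's, with no adjustment stated. The deposited read number per peak is a whole number, not normalised, and at least 3.

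Of 20048 gene identifiers, 19811 matched GENCODE 29. The principal transcript was chosen by APPRIS tag, then CCDS, then CDS length. As summit served the midpoint of the thick interval. Peaks listed under several genes were counted once in library totals and under each gene in values per gene. Coordinates are 1-based on GRCh38. All 10 tubulin genes are named, with at most 3 genes of each other list, and the strongest peak of each tubulin gene found in both libraries. The summit windows of the alpha genes are not reported here as sequence. The tubulin genes and the lists were chosen with earlier results of these data known. No test was run, since there is 1 group, and values are given per library or as mean ± SD. The scripts were checked on simulated data and used numpy 2.4.6, scipy 1.17.1, Biopython 1.88, pandas 2.3.3 and matplotlib 3.10.9 under Python 3.11.15.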

Additional observations from a re-analysis of the deposited data

Results flagged for a closer look

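Tubulin pseudogenes, which are outside the 10 genes described, also carried peaks. Their entries held 804 reads in replicate 1 and 818 in replicate 2, and 8 of 37 annotated pseudogenes had a peak in each library. TUBAP2 held 644 and 633 of these reads, TUBB2BP1 81 and 116, and TUBBP1 32 and 23. The summit windows of the strongest TUBA1A and TUBA1B peaks also occur in TUBAP2, and those of TUBB2A, TUBB2B and TUBB6 at codons 255 and 256 occur in TUBB2BP1. With no control library, and with read counts only per peak, reads of these pseudogenes and of the coding genes cannot be told apart.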

How the results depend on the processing

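Alternative values of the summary results numbered 51, not counting those that leave out a replicate. Of these, 24 stayed within the spread between the libraries (for counts of genes, within 1.5 times), and 27 moved by more. Reversals were not scored, so none could be counted. Reading the principal transcript alone gave a CDS share of 95.8% and a 3′ UTR share of 2.06%, against 36.7% and 61.2% with any transcript, by construction of the region rule. The larger share thus passed from the 3′ UTR to the CDS. With gene-specific summits only, the shares were 45.5% and 45.3%. With both choices together, an alternative chosen after seeing the data, they were 81.1% and 9.76%. On the principal transcripts the filter removed no 3′ UTR reads, so their share rose by construction. Gene-specific summits also lowered the covered CDS length to 6.18% from 24.7%, the share in the first 50 codons to 6.32% from 12.7% and the mean position to 0.397 from 0.465, with fewer peaks used. Keeping the strongest peak of each run of adjoining peaks gave 38.4% CDS, 59.1% 3′ UTR, 22.1% of CDS length, 77.2% overlap between libraries (82.3% as reported), 8.81% in the first 50 codons, a position of 0.484 and 0.368% of all peak reads (0.310% as reported). Peaks with p at or under 1e-05 gave 23.3% of CDS length, 87.9% overlap and 0.377% of all reads. Peaks of 10 reads or more gave 23.4%, 86.0% and 0.387%, with 78.3% of CDS reads in shared windows (77.7% as reported) and 9 genes with a peak in both libraries. An overlap of 50% of each width gave 76.6%. The first 100 codons held 27.6% of CDS reads. Windows of 31 nt and 21 nt gave 75.05% and 79.3% in shared windows. Beyond what the construction of each rule gives, the cause was not tested.

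With 2 libraries, leaving out either always moves a mean by less than their SD, so the ranges of means and shares say nothing of stability. Without one replicate the values were 35.6% to 37.7% for the CDS, 60.4% to 61.9% for the 3′ UTR, 24.4% to 24.9% of CDS length, 10.8% to 14.7% in the first 50 codons, 0.456 to 0.473 for the position, 0.307% to 0.313% of all reads, 77.5% to 78.0% in shared windows, 6 to 8 genes with a summit in the first 50 codons, and 0 to 1 genes with a peak over the start codon, the 1 being TUBB6 without replicate 2. The overlap between libraries and the count of genes with a peak in both need both libraries, so leaving one out gives no value. No paired analysis was possible because there is 1 group only. The precision is limited by 2 libraries, by read sums that are not depth, and by the sharing of reads among paralogues.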
